A study of Homo sapiens with 2 samples.

Results

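The tubulin genes read here were 4 alpha isotypes (TUBA1A, TUBA1B, TUBA1C and TUBA4A), 5 beta isotypes (TUBB, TUBB2A, TUBB2B, TUBB3 and TUBB6) and 1 gamma tubulin (TUBG1), 10 of the 19775 genes named on the array. They were chosen by name. Every probe set that the platform annotation gives to only 1 of these genes was taken, which made 19 of 41091 such probe sets. Probe sets that name several tubulins are described apart. RNA came from MKN28, an established human gastric cancer cell line, and was labelled with biotin and read on 1 array per group. The group labelled Sox2 was infected with a lentivirus that carries Sox2 and puromycin resistance, and was selected with puromycin. The other group is labelled as control (NC), and whether it received a virus or puromycin is not stated in the sources used here. Each group is 1 sample, so no difference below has a replicate error, no test between the conditions is possible, and no p-value is given. In bulk RNA, a change in the share of cells that make a transcript and in its amount per cell cannot be told apart. The identity of the line is a further limit, since cell line registers hold MKN28 to be a derivative of the gastric line MKN74.

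Alpha and beta tubulin pair into the dimers that polymerise into microtubules, the filaments of the mitotic spindle, of cilia and of transport inside the cell. Gamma tubulin does not enter the wall of the filament but sits in a ring complex from which microtubules grow. The isotypes of each class are encoded by separate genes with very similar coding sequences. They differ most in the tail at the carboxy end and in the untranslated ends of their mRNAs. TUBB, TUBB4B, TUBA1B and TUBA1C are made in most dividing cells, while TUBB3, TUBB2A, TUBB2B and TUBA1A are best known from neurons. Free tubulin dimers promote the decay of tubulin mRNAs while these are translated, a feedback known as autoregulation.

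A probe set combines several short probes along a transcript into 1 reading. Its name ends in _x_at where some of its probes also match other sequences, in _s_at where its probes match several transcripts, and in _at where they were designed for 1 transcript. Of the 19 tubulin probe sets, 12 end in _x_at, 1 in _s_at and 6 in _at. The readings of different _x_at probe sets can thus share transcripts and are not independent of each other. Intensities are on the linear scale of the deposited values. RMA, which the submitters name, usually ends in log2 values, so the last step behind these values, and with it the exact meaning of a fold, is not known. Their median was 34.25 in the Sox2-labelled array and 34.26 in the control. A probe set passed the filter on dim values when its higher value reached 34.25, the median of both arrays together. This held for 15 of the 19 tubulin probe sets and for 8 of the 10 genes. TUBB2A and TUBB6 did not pass. Differences are log2 of the Sox2 value minus log2 of the control value, and a difference was counted when it reached 2-fold.

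The array labels could not be checked by their target. The brightest SOX2 probe set read 172 in the Sox2-labelled array and 123 in the control (log2 difference 0.49), and the other 3 differed by 0.31, -0.023 and -0.46. The epithelial markers of the line were dim. EPCAM read 4.96 and 6.32, and the brightest probe sets of EPCAM, KRT8, KRT18, KRT19 and CDH1 summed to 244 and 268. Of the markers of other cells past the filter, 0 of 4 leukocyte and endothelial genes (median log2 difference 0.068) and 0 of 5 mesenchymal genes (0.16) reached 2-fold. VIM, of the latter, read 5833 and 4288. Of all 14253 genes past the filter, 2.05% were at least 2-fold higher and 0.645% lower. Counts of 0 among so few genes therefore say little. The poly-A spike-ins are bacterial RNAs added before labelling. Their 24 probe sets all read lower in the Sox2-labelled array, by a median of -0.75 in log2. In both arrays, the control probe sets of actin and GAPDH read far lower at the 3′ end than at the 5′ end or middle. In the Sox2-labelled array and the control, actin read 103 and 91.1 at the 3′ end, against 4935 and 3582 at the 5′ end. GAPDH read 184 and 195 at the 3′ end, against 1202 and 1451. The 5′ probe sets differed by 0.46 (actin) and -0.27 (GAPDH) in log2. The bearing of this pattern on dim readings was not tested. The robust SD of the difference of 1 probe set was 0.28 in log2, taken from the 3471 genes with 2 probe sets past the filter. It covers all levels past the filter and was not taken for bright probe sets alone. It holds no variation between cultures or arrays.

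Upstream sequence is shown for TUBB and TUBB3, the pair of isotypes that differed most between the arrays among those past the filter, and for TUBA1B, which hardly differed. The 250 bases before the start come from RefSeq (build GRCh38.p14) and are written 5′ to 3′ on the strand of the gene. TUBB lies on the plus strand (chr6:30720102-30720351), TUBB3 on the plus strand (chr16:89923092-89923341) and TUBA1B on the minus strand (chr12:49131396-49131645). For TUBB and TUBB3, which have 2 windows each, the one with a CCAAT box is printed. Capitals mark 4 motifs searched on both strands: the SOX-type cores ACAATG and ACAAAG, the CCAAT box CCAAT and the GC box GGGCGG. Matches of the GC box can overlap each other.
TUBB: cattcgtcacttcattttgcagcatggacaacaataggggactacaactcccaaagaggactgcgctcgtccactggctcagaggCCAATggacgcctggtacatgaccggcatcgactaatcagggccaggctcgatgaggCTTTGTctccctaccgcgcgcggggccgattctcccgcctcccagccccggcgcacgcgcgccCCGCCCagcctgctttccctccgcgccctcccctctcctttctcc
TUBB3: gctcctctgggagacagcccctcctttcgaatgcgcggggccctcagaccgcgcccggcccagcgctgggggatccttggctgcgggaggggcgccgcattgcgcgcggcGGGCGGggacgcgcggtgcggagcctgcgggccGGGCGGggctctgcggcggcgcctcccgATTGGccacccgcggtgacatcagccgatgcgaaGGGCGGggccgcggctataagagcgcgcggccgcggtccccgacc
TUBA1B: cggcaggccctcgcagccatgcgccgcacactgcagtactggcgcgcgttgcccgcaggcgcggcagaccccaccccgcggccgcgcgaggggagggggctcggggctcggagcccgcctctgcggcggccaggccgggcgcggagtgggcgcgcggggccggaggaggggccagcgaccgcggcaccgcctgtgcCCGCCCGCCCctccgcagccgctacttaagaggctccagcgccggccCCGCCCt

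In the printed TUBB window, ACAAAG lay on the opposite strand 108 bases before the start, and CCAAT 165 bases before it. That window also held 1 GC box. The TUBB window not printed held ACAATG 181 bases before its start, 5 GC boxes and no CCAAT box. Neither TUBB3 window held a SOX-type core. The printed TUBB3 window held 3 GC boxes and a CCAAT box 79 bases before the start, and the TUBA1B window 3 GC boxes. Over the 15 windows of the 10 genes, 6 held either SOX-type core, against 21.2% of the 35116 windows of the same length in the table. The CCAAT box was in 9 of the 15, against 32.0%, and the GC box in 10, against 42.6%. Some windows belong to 1 gene and overlap. A match describes letters and is not a binding site.

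Among the alpha tubulins, TUBA1B and TUBA1C gave some of the highest readings on either array and differed little between them. The brightest TUBA1C probe set read 12938 in the Sox2-labelled array and 12252 in the control (log2 difference 0.079), ranks 2 and 4 of 54613 probe sets. The other read 12044 and 11606 (0.053). For TUBA1B, the 5 probe sets ending in _x_at read 10516, 9499, 6420, 6379 and 5918 in the Sox2-labelled array. In the same order they read 9990.1, 9176, 6211, 6138 and 5747 in the control. All 5 were slightly higher in the Sox2-labelled array, by 0.042 to 0.074 in log2, with an SD of 0.012 between probe sets. This is far within the technical SD of 0.28. The sixth TUBA1B probe set, ending in _at, read only 7.80 and 9.18, and no detection call shows whether it lay above background.

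TUBA4A, an isotype abundant in blood platelets, was the 1 bright tubulin read by a probe set ending in _at. It read 3917 in the Sox2-labelled array and 3519 in the control (0.15), again within the technical SD. TUBA1A, the main alpha isotype of developing neurons, read 199.8 and 212 by its _s_at probe set (-0.084). Over the 9 alpha probe sets past the filter, the differences ran from -0.084 to 0.15 with a median of 0.053, and none reached 2-fold.

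**Figure D1:**
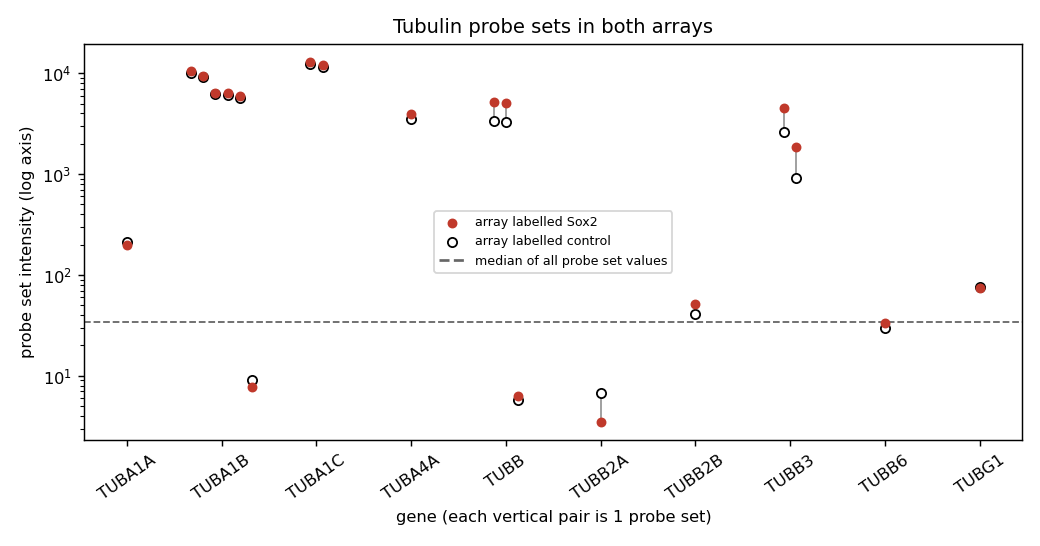
Intensity (log axis) of the 19 tubulin probe sets in the Sox2-labelled array (red) and the control array (open), by gene; each vertical pair is 1 probe set and the dashed line is the median of all values, 34.25. The readings of both arrays lie close together for each alpha probe set but apart for the bright TUBB and TUBB3 probe sets. Single probe sets of TUBA1B, TUBB and TUBB2A lie below 10.

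The bright beta tubulins read higher in the Sox2-labelled array. The 2 TUBB probe sets ending in _x_at read 5248 and 5089 there, against 3387 and 3265 in the control. These are log2 differences of 0.63 and 0.64, or 1.55-fold and 1.56-fold, with an SD of 0.0061 between them. TUBB encodes the beta isotype of most dividing cells. The remaining TUBB probe set, ending in _at, read 6.27 and 5.76 (0.12), far under the filter, so no probe set designed for TUBB alone bears on the difference.

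TUBB3, the class III beta tubulin that is used as a neuronal marker and is also made in many carcinomas, had the largest differences past the filter. One probe set read 4515 in the Sox2-labelled array against 2609 in the control (log2 0.79, 1.73-fold). The other read 1853 against 906 (log2 1.03, 2.05-fold). Both values of the Sox2-labelled array lay above their own control, with an SD of 0.17 between the differences. Both probe sets end in _x_at, so whether they read TUBB3 or other beta tubulins was not tested. The brightest probe sets of 8 other neuronal genes (ELAVL3, ELAVL4, NEFL, NEFM, SYP, SNAP25, GAP43 and DCX) differed by -0.28 to 0.071 in log2. The lowest of these, that of DCX at 28.9 against 35.2, passed the filter through the control alone. The summed intensity of their brightest probe sets was 475 in the Sox2-labelled array and 510.3 in the control, and their part in the TUBB3 readings was not tested.

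The other beta isotypes were dim. TUBB2B, a neuronal isotype, read 51.1 and 41.3 (log2 0.31), just past the technical SD. TUBB6, a widely made isotype, read 33.2 and 29.6 (0.17), just under the filter. TUBB2A, the close relative of TUBB2B, read 3.48 in the Sox2-labelled array and 6.75 in the control (-0.96), at the low end of the array, where a fold change carries little weight. A probe set that names both TUBB2A and TUBB2B read 172 and 192 (-0.16). It was lower in the Sox2-labelled array, while the probe set given to TUBB2B alone was higher, and no direction can be given for this pair. TUBG1, the main gamma tubulin of dividing cells, read 73.7 and 75.5 (-0.036).

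**Figure D2:**
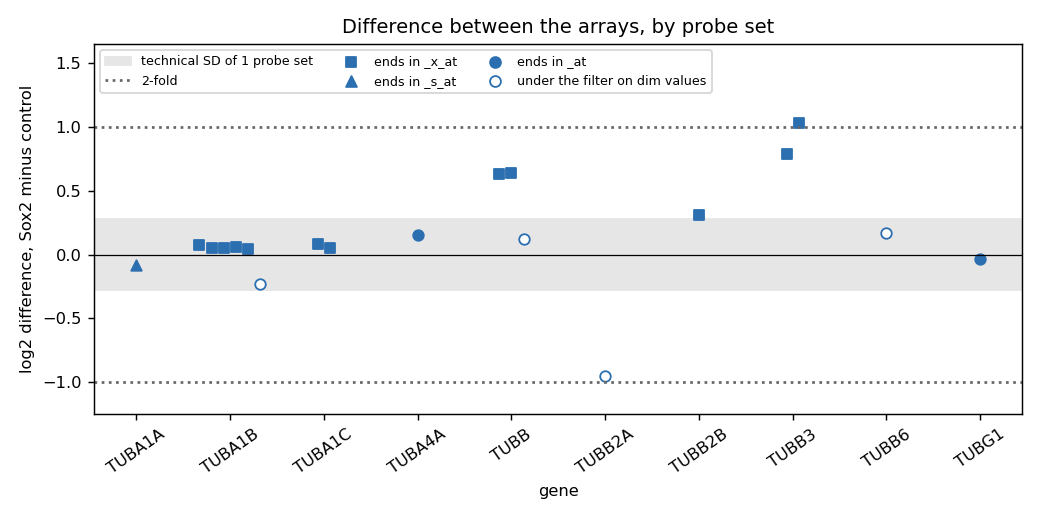
Log2 difference (Sox2 minus control) of each tubulin probe set, by gene; marker shapes give the ending of the probe set name, open markers are under the filter, the grey band is the technical SD of 0.28 on either side of 0 and dotted lines mark 2-fold. The bright TUBB and TUBB3 probe sets lie between 0.63 and 1.03, and all alpha probe sets lie inside the band.

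By the brightest probe set of each gene, 0 of the 8 tubulin genes past the filter reached 2-fold. Over all 14253 genes past it, 2.05% were at least 2-fold higher in the Sox2-labelled array and 0.645% at least 2-fold lower. The median log2 difference was 0.12 over the 8 genes, of which 6 lay above 0, against -0.0032 over all genes, of which 49.6% did. After lowess centring the tubulin median was -0.0020 and 4 of the 8 genes lay above 0, with TUBA1B and TUBA1C turned to below 0. By probe set, 1 of 15 was at least 2-fold higher (that of TUBB3 at 1853 against 906) and 0 lower. The background was 1.97% higher and 0.523% lower of 22938 probe sets of 1 gene. The tubulin count rests on a single probe set.

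The order of levels changed only where the beta tubulins moved past TUBA4A. By brightest probe set, TUBA1C stood first and TUBA1B second in both arrays. In the Sox2-labelled array, TUBB and TUBB3 came next and then TUBA4A, while in the control TUBA4A came before TUBB and TUBB3. TUBA1A, TUBG1, TUBB2B, TUBB6 and TUBB2A followed in this order in both. Binding strength varies from probe set to probe set, and 1 each of TUBA1B and TUBB read below 10 in both arrays. Whether probe position along the transcript, as in the actin and GAPDH controls, had a part in this was not tested. The order therefore describes probe sets and does not rank the isotypes by abundance.

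Alpha and beta tubulins were also set against other bright probe sets, since bright readings spread more between these arrays. Of 465 probe sets of 1 gene that read at least 500 in both arrays, 7.53% were at least 2-fold higher in the Sox2-labelled array and 1.94% at least 2-fold lower. Names ending in _x_at made up 107 of these 465, and 11 of the 12 tubulin probe sets among them. The robust SD of the 465 differences was 0.61 in log2, and 5% of the values lay above 1.05. The 8 bright alpha probe sets, of TUBA1B, TUBA1C and TUBA4A, had a median difference of 0.055, near the median of 0.085 of all 465. The 4 bright beta probe sets, of TUBB and TUBB3, had a median of 0.72. No alpha value reached the lowest beta value: the alpha range was 0.042 to 0.15 and the beta range 0.63 to 1.03. Within all 465, however, 79.6% lay below the lowest of the beta values and 93.1% below the highest. The beta values were thus among the upper part of bright probe sets but inside their spread. This minimum of 500 and the split by class were chosen after the values were seen.

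**Figure D3:**
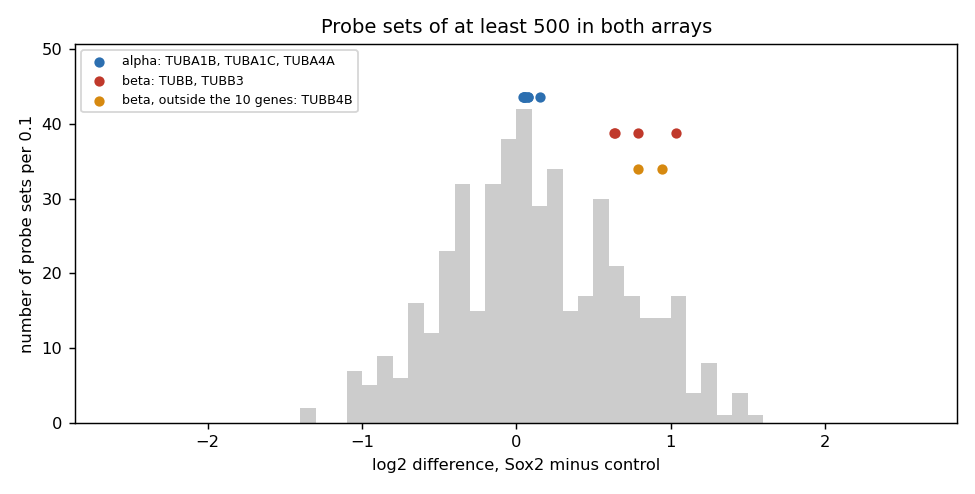
Histogram of the log2 difference (Sox2 minus control) of the 465 probe sets with intensities of at least 500 in both arrays, in steps of 0.1; dots above it are alpha tubulin (blue), beta tubulin (red) and TUBB4B (orange) probe sets, with no meaning in their height. The alpha dots sit near the median of 0.085, and the beta dots between 0.63 and 1.03, inside the right flank.

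The median beta minus the median alpha difference was 0.66 in log2 as deposited, 0.66 after lowess centring and 0.59 after quantile normalization. Centring on the median or on the spike-ins shifts all probe sets alike and cannot change this gap. Lowess centring shifts probe sets of similar brightness nearly alike, so it could hardly change the gap either. The alpha median itself changed sign, from 0.055 as deposited to -0.079 after lowess centring, and the beta median went from 0.72 to 0.58. Scaling on the spike-ins moved the median of all genes to 0.75. On that scale the alpha median was 0.81, close to this shift, and the beta median 1.47.

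Tubulins outside the 10 genes were read as well. Of 12 further tubulin genes, 8 had a probe set of their own and 5 passed the filter, with a median of -0.12. None of the 5 reached 2-fold, against 2.05% higher and 0.645% lower over all genes past the filter. TUBB4B, another beta isotype of most dividing cells, differed most. Its 2 probe sets, both ending in _x_at, read 3588 against 2073 (log2 0.79) and 1178 against 611 (0.95), within the range of TUBB and TUBB3. By their brightest probe sets, the 4 others past the filter lay below 0, down to -0.38. TUBB1, a platelet isotype and 1 of the 4, read 73.9 against 91.1 (-0.30) by that probe set but 43.7 against 34.3 (0.35) by another. Probe sets naming both TUBA3C and TUBA3D, alpha isotypes of the testis, read 164 against 152 (0.11) and 82.2 against 82.6 (-0.0061).

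Tubulin is folded by prefoldin, the CCT chaperonin ring and the tubulin cofactors. Of 17 folding genes past the filter, 1 was at least 2-fold higher, 0 were lower and the median was 0.10. Over all genes past the filter, 2.05% were at least 2-fold higher and 0.645% lower, so 1 of 17 says little. The gene that reached 2-fold was CCT3, a subunit of the ring, at 662 against 282 (log2 1.23). CCT8, another subunit, which was named after its value was seen, read 4239 against 2276 (0.90). CCT4, CCT5, CCT6A and CCT7 lay between 0.10 and 0.39 and read at most 103. CCT2, at 38.4 against 32.6, passed the filter through the Sox2-labelled array alone. PFDN5, a prefoldin subunit also named after its value was seen, differed the other way, at 1491 against 2052 (-0.46) by its brightest probe set.

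Past the filter, none of the remaining listed genes reached 2-fold by their brightest probe set. Of 13 genes of the gamma-tubulin ring and its recruiters past the filter, 6 lay above 0 and 7 below (median -0.017). The largest difference was that of HAUS2, an augmin subunit, at 100.3 against 52.4 (log2 0.94), and its 3 other probe sets, all under the filter, differed by 0.16, -0.69 and 0.45. TUBGCP6, a ring subunit named after its value was seen, had the lowest value by its brightest probe set, at 50.6 against 87.1 (-0.78), while another of its probe sets read 41.7 against 37.8 (0.14). TTL, which restores the terminal tyrosine of alpha tubulin, differed most of 19 genes of tubulin modification (median 0.091). It read 91.8 against 54.4 (log2 0.75) by its brightest probe set, and another probe set 72.6 against 66.0 (0.14). A further TTL probe set, at 43.0 against 28.6, passed the filter through the Sox2-labelled array alone.

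MAPRE1, the EB1 protein that tracks growing microtubule ends, differed most of 25 microtubule-associated and severing genes (median -0.0077). It read 2601 against 1343 (log2 0.95), and its other probe set read 265 against 106 (1.33), past 2-fold. Of the 3 genes of tubulin mRNA decay, only SCAPER passed the filter, at 37.3 against 36.1 (0.044). The TTC5 protein, which recognises nascent tubulin chains, had a brightest probe set of 29.3 and 29.04, under the filter. Of the 80 genes of these lists past the filter, 1 reached 2-fold, against the background of 2.05% higher and 0.645% lower given above.

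**Figure D4:**
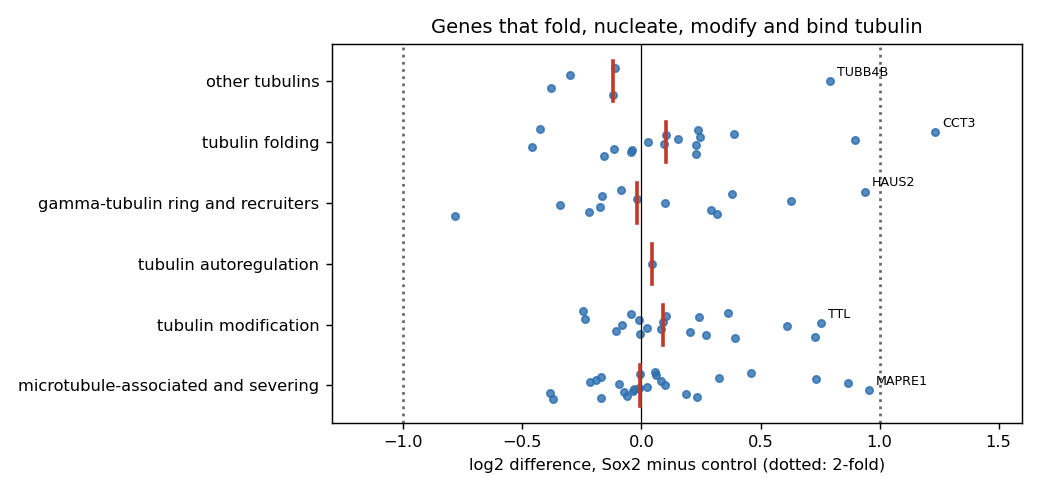
Log2 difference (Sox2 minus control) of the genes past the filter, by their brightest probe set, in the 6 lists of tubulin and microtubule genes; each dot is 1 gene, red bars are list medians and dotted lines mark 2-fold. CCT3 alone lies past 2-fold, and the list medians lie between -0.12 and 0.10.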

How the data were processed

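RNA of 2 samples, 1 per group, was read on Affymetrix arrays. The authors deposited 1 linear intensity per probe set and array. The submitters' processing notes name RMA alone, with settings not given in the sources used here; RMA usually gives log2 values, so the last step that made these linear values is unknown. Values were taken to log2 as deposited, with no further scaling. Of 54675 probe sets, 62 are Affymetrix controls, 41091 name exactly 1 gene, 1801 several and 11721 none in the platform annotation; symbols were updated through gene identifiers in a RefSeq table, for all 10 tubulin genes. Each gene took the values of its brightest probe set (by mean log2), and entered when its higher value reached the median of all values. With 1 array per group, genes were counted at a 2-fold difference without a test. Named were all 10 genes, SOX2 and, of each list, up to 4 genes at 2-fold or the 1 with the largest difference; others are said to be named after their values were seen. The genes, lists and rules were chosen with earlier results of these data known. No detection call was made, since scanner images and probe-level values were not used here. The number of arrays limits the precision. The counting and scaling steps were tested on simulated data. Alternatives covered scaling, choice of probe set, filter, an added constant and the fold threshold. Python 3.11.15, numpy 2.4.6, pandas 2.3.3, SciPy 1.17.1, statsmodels 0.14.6 and matplotlib 3.10.9 were used.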

Additional observations from a re-analysis of the deposited data

How the results depend on the processing

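No paired analysis was possible because each group is 1 array, and for the same reason no array could be left out. The count of tubulin genes at 2-fold, 0 of 8, became 1 with the probe set of the largest difference (TUBB3), 2 at a 1.5-fold threshold (TUBB and TUBB3) and 3 after centring on the poly-A spike-ins, an alternative chosen after seeing the data. The count of tubulin probe sets at 2-fold, 1 of 15, became 0 under lowess centring (span 0.3) and under quantile normalization, where the TUBB3 difference of 1.03 was 0.90 and 0.83. It was also 0 of 2 without probe sets ending in _s_at, _x_at or _a_at, 4 at 1.5-fold and 5 after spike-in centring. The median over tubulin genes moved from 0.12 to 0.87 with the spike-ins and lay between -0.0020 (lowess) and 0.12 under the other alternatives. The count over the 6 lists, 1 of 80, became 2 of 57 with averaged probe sets and 2 of 97 with no filter. It was 2 of 80 with the largest difference, 12 of 80 at 1.5-fold and 20 of 80 with the spike-ins. Over all genes, 63 of 11168 were at least 2-fold higher and 43 lower with averaged probe sets. With no filter these were 378 and 177 of 19775, and with the largest difference 364 and 118 of 14262. With the spike-ins they were 2869 and 3 of 14253. The share over all genes at 1.5-fold, and over all probe sets under the alternatives, was not computed. Those counts have no background here. TUBB lay above 0 under all 10 alternatives and TUBB3 under all 9 that gave a value. Several of these could not turn the sign: both changes of the filter kept the same values, and the spike-ins raised all probe sets alike. Adding a constant to both values cannot change which is higher, and centring on the median moved TUBB only from 0.6317 to 0.6321. TUBB was 0.50 after lowess centring and 0.60 after quantile normalization, and TUBB3 was 0.66 and 0.70. TUBB read 0.12 when only probe sets ending in _at were used, where its values lie under the filter and TUBB3 has none. The share higher among all genes counted was 76.0% as deposited, 64.5% after quantile normalization and 99.9% with the spike-ins.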
